A study of Arabidopsis thaliana with 12 samples.

Results

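The 200 probe sets with the highest signal in mature wild-type Arabidopsis seed are described here by their levels, out of 22746 probe sets measured. They were chosen by ranking the mean linear signal of the 3 arrays of wild-type Landsberg erecta (Ler) seed produced at 20 °C in 16 h days, with control probe sets left out. A probe set is a group of short DNA probes on the Affymetrix ATH1 array that reads 1 transcript or a few alike ones, and its signal is a background-corrected brightness with no unit, scaled so that each array's trimmed mean was 100. The series held 12 arrays of seed RNA, 3 in each of 4 groups, and addressed how seed dormancy depends on the surroundings of the mother plant. Ler plants of the first group were at 10 °C in 16 h days while seed matured, those of the second grew at 20 °C in 8 h days, and the third, also at 20 °C in 16 h days, was labelled with the mutant allele ft-1 of a gene that promotes flowering. The last group was the wild type at 20 °C in 16 h days. All 12 samples were mature seed taken from opened siliques. For the ft-1 arrays the source name reads Glabra, while genotype and title read ft-1, and the mutated gene was not analysed here, so that label was not checked against the data. The labels do not say whether numbered arrays stand for separate plants or separate harvests, so spreads and p-values measure only the difference between these samples, which may be technical.

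A dry seed carries transcripts made late in maturation and kept through drying. Late embryogenesis abundant (LEA) proteins are hydrophilic proteins that accumulate as the embryo loses water and are known for protecting cells from desiccation. Storage proteins of the cupin and albumin families fill the protein storage vacuoles, and oil bodies hold triacylglycerol inside a coat of oleosins. The glyoxylate cycle later turns that oil into sugar during germination. Mature Arabidopsis seed consists mainly of embryo, with a thin endosperm and a dead seed coat.

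The signal was concentrated in few probe sets. The 200 make up 0.879% of the probe sets and held 26.3%, 27.6% and 28.2% of the summed signal on arrays 1, 2 and 3, a mean of 27.4% ± 0.990 (SD, n = 3). The single highest probe set held 0.343% of the signal, the first 10 held 3.04%, the first 50 held 11.3%, the first 100 held 18.5% and the first 1000 held 54.5%. Counted from the top, 168 probe sets held the first 25% of the signal, 796 held 50%, 2610 held 75% and 5561 held 90%. These shares are fixed in part by ranking on the same arrays. When the 200 were chosen on 2 of the arrays and measured on the one left out, the share was 26.3% to 28.1% (mean 27.3 ± 0.925, SD, n = 3).

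**Figure D1:**
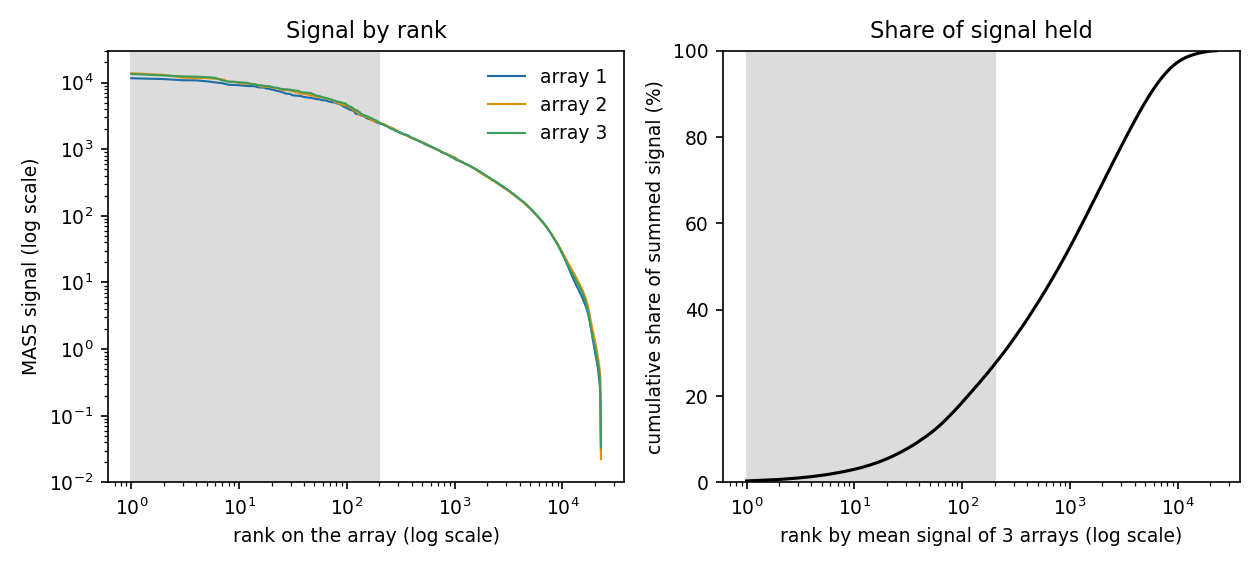
Left, MAS5 signal against rank on each of the 3 arrays of wild-type seed from 20 °C and long days, both axes logarithmic. Right, cumulative share of the summed mean signal against rank, with a logarithmic rank axis; the grey band marks ranks 1 to 200, which held 27.4% of the signal.

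Among the 200, signals ran from 2428 to 12370 with a median of 4334, against a median of 17.6 over all 22746 probe sets. The highest member stood 5.09-fold over the lowest, and the lowest stood 138-fold over the median of all. The threshold cuts through a continuous range. The named probe sets just inside were AT5G52420 at 2522, AT1G16210 at 2476 and AT5G45310 at 2428. Those just outside were AT1G17010 at 2422, atpE, which encodes a subunit of the plastid ATP synthase, at 2414, and AT2G20920 at 2409. A probe set's signal depends on how well its own probes bind as well as on the amount of RNA, and MAS5 signals are not per transcript length, so the order is one of signal and not of transcript abundance.

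The same probe sets led on each array. Of the 200, 186, 190 and 191 were in the 200 highest of arrays 1, 2 and 3 taken alone, 171 were so on all 3, and all 200 were in the 400 highest of each array. Leaving out array 1, 2 or 3 kept 198, 196 or 192 of them. Over the 200, log2 signals correlated at r = 0.960 between arrays 1 and 2, 0.906 between arrays 1 and 3 and 0.900 between arrays 2 and 3. Over all probe sets these values were 0.927, 0.911 and 0.905. They are correlations across probe sets, which are not independent replicates.

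About 1 member in 2 could be given a gene. The platform annotation pairs 105 of the 200 with 1 gene (52.5%, against 59.4% of all 22746) and 2 with several, and 93 are unnamed here. The 93 held 13.2% ± 0.477 of the summed signal, and the 105 held 14.0% ± 0.536 (SD, n = 3 each). The gap was widest at the top, where 8 of the 10 highest probe sets are unnamed. The first was 253767_at with 11281, 13766 and 12062 on arrays 1 to 3. The second was 247095_at with 11597, 11838 and 13438. The other 6 unnamed probe sets of the first 10 were 265095_at, 262128_at, 248125_at, 253904_at, 249082_at and 263175_at. Every count of gene functions that follows covers only the members with 1 gene, and a listed gene without a probe set in the annotation was not analysed here. Of the 200, 4 carry the suffix that marks probes shared by several transcripts (2%, against 4.66% of all).

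LEA genes were the largest group given a function among the members with 1 gene. Cover by the annotation was uneven, with a probe set for 36 of 52 listed LEA genes. Only 5 of 13 storage and 4 of 13 oil body genes had one. The groups therefore cannot be ranked for the seed as a whole. Of 52 LEA genes listed, 36 had a probe set with 1 gene, and 19 of the 36 (52.8%) were members, against 0.790% of the 13286 loci with a probe set. The 19 held 3.24% ± 0.192 of the summed signal (SD, n = 3), or 3.02%, 3.32% and 3.38% by array. They sat high within the 200, with 9 in ranks 1 to 50, 5 in ranks 51 to 100, 5 in ranks 101 to 150 and 0 in ranks 151 to 200.

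By family, the LEA_4 family of Pfam, which forms amphipathic helices on drying, had 9 members with 1.52% of the signal. The highest named probe set of all was one of them, AT3G15670, at rank 3 with 10767, 13055 and 12791. AT2G42560 gave 5969, 6781 and 8379. AT3G53040 gave 5969, 6808 and 7662. AT3G17520 had 5461, 6837 and 7151. In these 4 genes array 1 was the lowest, and the other 5 of the family had means of 3476 to 5486.

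The LEA_1 family had 3 members with 0.694% of the signal, close together in level. LEA4-5 gave 9263, 8706 and 7828 on arrays 1 to 3. AtLEA4-1 gave 7783, 8548 and 9399. LEA18 gave 7524, 8193 and 7911. LEA4-5 and AtLEA4-1 ordered the arrays in opposite ways, and the 3 means lay between 7876 and 8599.

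Dehydrins, LEA proteins that are also known from cold-treated leaves, had 2 members with 0.405%. The dehydrin gene AT2G21490, whose symbol is LEA, had 8413, 9527 and 8470. LTI30, a dehydrin known for binding membranes, had 4987, 5725 and 6723. The neighbouring genes M10 and M17, which encode small seed proteins of the AtM family, held 0.290%. M10 had 6203, 7064 and 7103, and M17 had 3754, 4082 and 3149. The PvLEA18 family had the neighbours AT2G23110 and AT2G23120 (0.232%), and the seed maturation protein family had AT3G22490 (0.105%) with 3845, 4124 and 3369.

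The list did not behave as 1 block. Of the 36 LEA genes with a probe set, 12 lay below the median signal of all probe sets, and the range ran from 1.81 to 12204. The cold-induced chloroplast proteins COR15A and COR15B had means of 1.93 and 13.8, and the dehydrin COR47 had 9.63. Between these and the members lay AT2G18340 at rank 269, with 1698, 1905 and 2387, AT4G39130 with a mean of 506 and DI21 with 324.

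**Figure D2:**
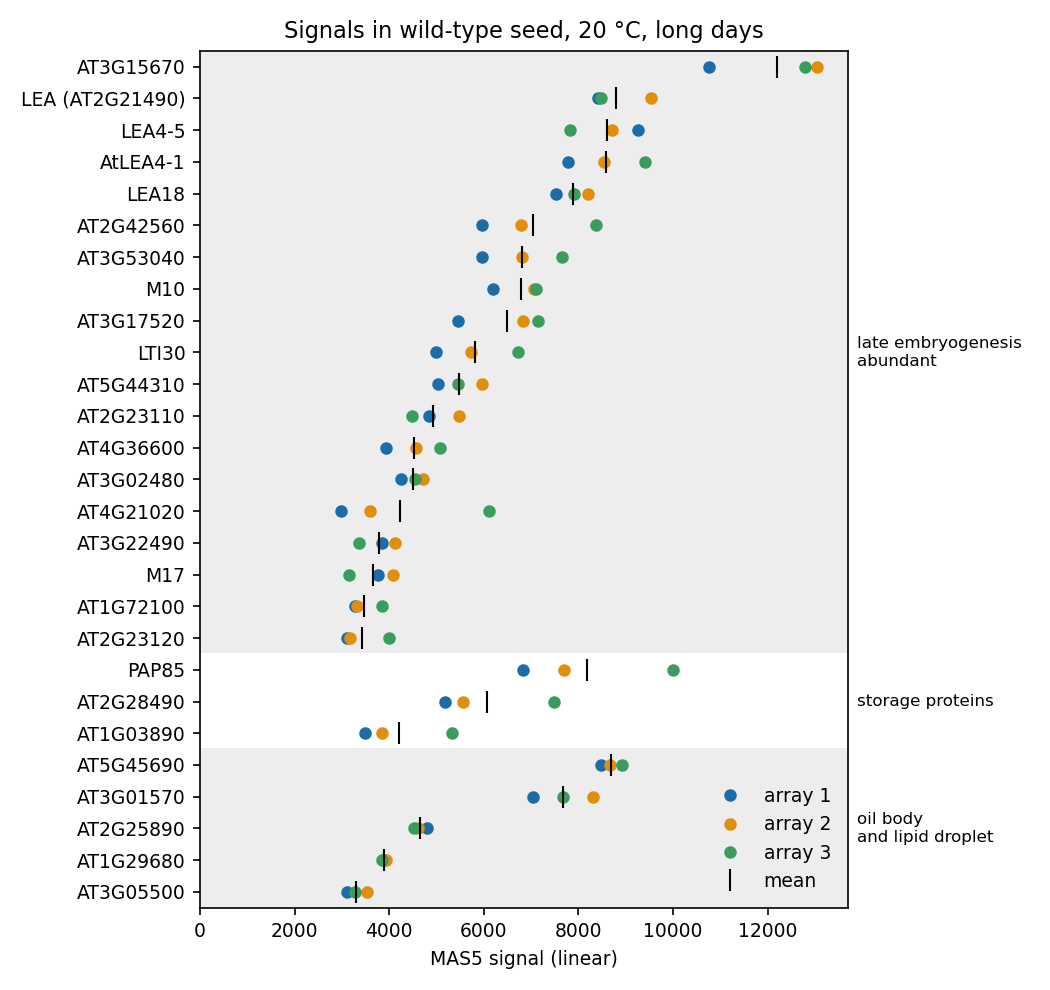
MAS5 signal (linear axis) of the 19 LEA genes, 3 storage protein genes and 5 oil body and lipid droplet genes among the 200, with 1 point for each array of wild-type seed from 20 °C and long days and a bar for the mean. The 3 storage genes have array 3 as the highest, while most oil body genes have their points close together. The coefficient of variation of the oil body genes had a median of 2.90% and a maximum of 8.33%.

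Storage protein genes with a name were few. Of 13 listed, 5 had a probe set and 3 were members, which held 0.511% ± 0.0999 of the signal (SD, n = 3). PAP85, a vicilin-like globulin, gave 6835, 7689 and 10008. AT2G28490, another vicilin-like cupin, gave 5176, 5550 and 7485. AT1G03890, a cruciferin-like gene, gave 3485, 3840 and 5317. All 3 were highest on array 3. The listed genes outside the 200 were AT4G36700 with a mean of 1134 and AT2G18540 with 53.4, 53.2 and 152.

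Oil body genes were at like levels, but most varied little between arrays. The group had 5 members with 0.781% ± 0.0186 of the signal (SD, n = 3). The highest was AT5G45690 at rank 17, of the oil body-associated protein family, with 8474, 8665 and 8929. The oleosin AT3G01570 gave 7039, 8317 and 7666, and the oleosin AT2G25890 gave 4791, 4606 and 4529. AT1G29680, also of the oil body-associated family, gave 3883, 3925 and 3845. AT3G05500, a lipid droplet-associated protein, gave 3098, 3528 and 3273. Of 13 listed oleosin and related genes, 4 had a probe set and 2 were members, while AT3G18570 had a mean of 2186 and OLEO3 had 1144.

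Enzymes made up the next largest group, with 10 members and 1.63% ± 0.0278 of the signal (SD, n = 3). AT3G56350, of the manganese superoxide dismutase family, gave 10813, 7643 and 8845 at rank 11. ICL, isocitrate lyase of the glyoxylate cycle, gave 7824, 8708 and 6376 at rank 28. The short-chain dehydrogenases AT3G05260 and AT1G54870 had means of 8490 and 6848, and AT5G01670, an aldo-keto reductase, had 6476. BGLU19, a beta-glucosidase, gave 4711, 5615 and 5143. FDH, here the formate dehydrogenase AT5G14780, gave 4541, 4412 and 4065. The glycolytic genes GAPC2 and TPI were not members, with means of 1008 and 733.

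Several smaller groups were present. The membrane and stress proteins had 6 members (0.752%), led by AT1G04560, an AWPM-19-like membrane protein, with 8805, 9569 and 10302 at rank 9. TIL, the temperature-induced lipocalin, gave 3092, 3923 and 4393, and ATOEP16-2, a channel of the plastid outer envelope, gave 5061, 5830 and 5823. Proteases and their inhibitors had 5 (0.736%). The papain-type protease AT3G54940 gave 6407, 6713 and 7505, and BETA-VPE, a vacuolar processing enzyme known for cleaving storage protein precursors, gave 5398, 4902 and 6927. The glycine-rich proteins AT5G35660 and AT2G05580 had means of 8013 and 7474.

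The small cysteine-rich peptides had 5 members (0.610% ± 0.0687, SD, n = 3) and were spread widely between arrays. AT1G47540, a knottin-type protease inhibitor, gave 6354, 4025 and 7071. The defensin PDF2.1 gave 3389, 3917 and 5443, and the defensin LCR67 gave 2375, 2712 and 3619. AT1G48750, of the lipid transfer protein family, gave 4111, 4636 and 3945.

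Regulators and protein turnover genes had 7 members (0.623%). The highest was AT1G75490, a DREB2-type transcription factor, with 4363, 4345 and 5343. UBC30, a ubiquitin-conjugating enzyme, gave 2748, 2997 and 2821, and the autophagy gene APG8H gave 2473, 2464 and 3239. The only member with a role in translation was AT3G09200, the acidic ribosomal protein P0, with 2786, 2895 and 1995. Another 6 members belonged to other known families, such as the major latex protein-like AT1G14950 (mean 7447) and the universal stress protein-like AT3G58450 (6911). The remaining 36 members with 1 gene were given no role and held 3.75%. They were more frequent down the ranking, with 2, 8, 9 and 17 in the 4 successive groups of 50 ranks. AT5G07330 (6404, 7550 and 6941) and AT2G21820 (5737, 5499 and 7004) were the highest of them.

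Other lists had no member. The 9 small heat shock protein genes with a probe set peaked at a mean of 727 (AT1G54050, rank 1012). Of the translation factor list, AT4G27130 at rank 207 (2396) and AT5G54940 at rank 217 (2298) lay just outside. The lists of other chaperones, redox proteins and metallothioneins, and abscisic acid response had 2 genes each with a probe set. The lipid transfer list and the ribosomal protein pattern had 1 each (AT4G22490, mean 3.84, and AT1G77750, mean 47.8), and the cytoskeleton list 9. None of these was a member. The lists are partial: the members AT1G48750, of the lipid transfer protein family, and AT3G09200, a ribosomal protein, were not on them. The lists for ubiquitin, tonoplast aquaporins, sugar metabolism, endosperm and embryo epidermis had 0 probe sets. The 69 probe sets of the plastid genome gave 0 members, with atpE the highest at rank 204, and mitochondrial genes were not analysed here.

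None of the listed green tissue and seed coat genes with a probe set was among the 200. The 93 unnamed members could not be checked against these lists. Of 40 nuclear photosynthesis genes, listed here for green tissue of any kind, 9 had a probe set. These 9 had means of 22.3 to 581, with LHCB4.1, a light-harvesting protein, the highest at rank 1320. Their summed signal was 1306, 1424 and 879 on arrays 1 to 3. Of 7 listed seed coat genes 4 had a probe set. The subtilase ARA12 had a mean of 175, and the flavonoid genes BAN and DFR and the peroxidase AT3G50990 had 8.90, 8.68 and 1.45.

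The spread of the members was near that of the probe sets next in rank and below that of dim ones. Their median coefficient of variation (CV, the SD over the 3 arrays as a percent of the mean) was 9.27% with quartiles of 6.34% and 14.7%. It was 11.9% for ranks 201 to 1000, 14.0% for ranks 1001 to 5000, 39.6% for ranks below that and 29.6% over all probe sets. Within the next ranks it varied, with 11.8% for ranks 201 to 244 and 8.59% for ranks 298 to 361. Of the 200, 111 had a CV under 10% and 8 had one over 25%. No test was made, since ranking on the mean of the same arrays bears on the spread.

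**Figure D3:**
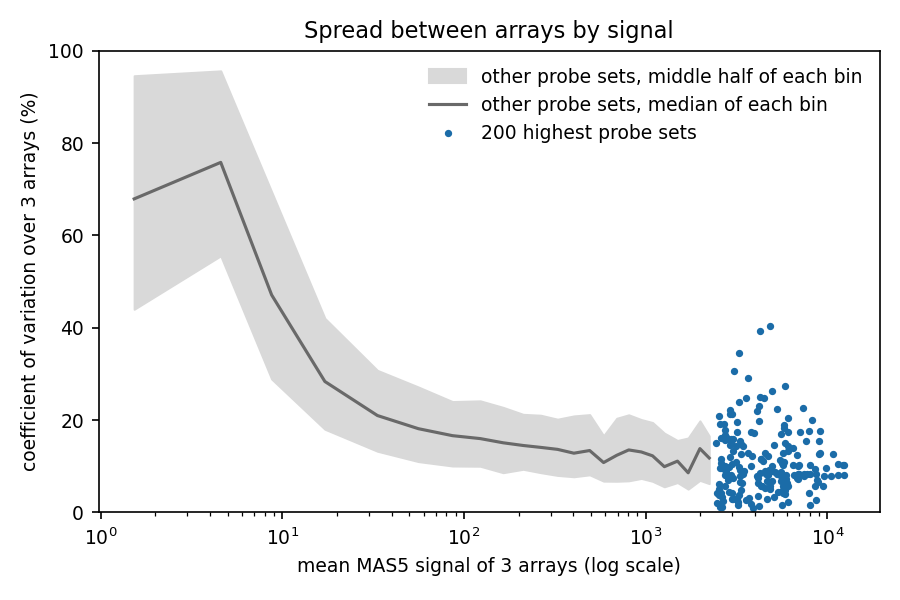
Coefficient of variation over the 3 arrays (linear axis, percent) against mean MAS5 signal (log axis), with each of the 200 as a point and the other probe sets as a line (median of each bin of ranks) and a band from the first to the third quartile of the bin. The median was 9.27% for the 200 and 39.6% for ranks after 5000.

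The named members with the widest spread were AT4G21020, a LEA gene, with 2983, 3600 and 6118 (CV 39.2%), AT1G47540 (27.4%), PDF2.1 (25.1%), AT1G51200 (24.9%) and AT1G03890 (23.1%). In 4 of these 5 array 3 was the highest. AT1G51200, a zinc finger protein of the A20/AN1 type, was the exception with 3367, 4544 and 2802. The narrowest were AT1G29680 (1.02%), AT5G03180 (1.10%, with 2619, 2640 and 2583), AT2G23090 (1.21%), the protein phosphatase AT3G15260 (1.53%) and AT3G19920 (1.60%).

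The members were not evenly high on the 3 arrays. Array 3 was the highest of the 3 arrays for 110 of the 200 and the lowest for 51, while array 1 was the highest for 23 and the lowest for 114. Over all probe sets, arrays 1, 2 and 3 were the highest for 25.2%, 37.0% and 37.8% and the lowest for 36.1%, 26.9% and 37.0%. The ratio of array 3 to the mean of arrays 1 and 2 had a median of 1.07 over the 200 and 1.00 over ranks 201 to 5000. By group, the median ratio was 1.40 for the 3 storage genes and 1.36 for the 5 cysteine-rich peptides. It was 1.07 for the 19 LEA genes, of which 10 were highest and 4 lowest on array 3. Oil body genes (0.988) and enzymes (0.984) were near 1.

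Most of the nuclear photosynthesis genes with a probe set were lower on array 3. Their median ratio was 0.314, and 6 of 9 were lowest on that array. The light-harvesting genes of the list did not share this, with ratios of 1.07 for LHCB4.1 (539, 598 and 608), 1.05 for LHCB4.2 and 0.952 for LHCB4.3. RCA, the activase of the carbon-fixing enzyme Rubisco, gave 368, 370 and 40.8. PSBW gave 140, 147 and 51.8, and PSAN gave 37.6, 31.4 and 4.81, both subunits of the photosystems. The 69 plastid probe sets had a median ratio of 0.846, with 41 lowest on array 3. The mean log2 signal of 24 poly-A control probe sets, which read bacterial RNAs added to the sample, was 6.99, 6.96 and 6.51. The 3' minus 5' difference of GAPDH, a measure of RNA integrity, was 0.362, 0.260 and 0.768 (log2) by the first pair of control probe sets and 0.279, 0.400 and 0.437 by the second pair. For actin it was 3.82, 3.28 and 3.44 and for ubiquitin 0.683, 0.701 and 0.536, neither highest on array 3. The part of tissue make-up, RNA quality and labelling in the array 3 values was not tested. Without array 3, the 200 highest held 27.0% of the signal and included the same 19 LEA, 3 storage and 2 oleosin genes of the lists, with no other gene of these lists entering.

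**Figure D4:**
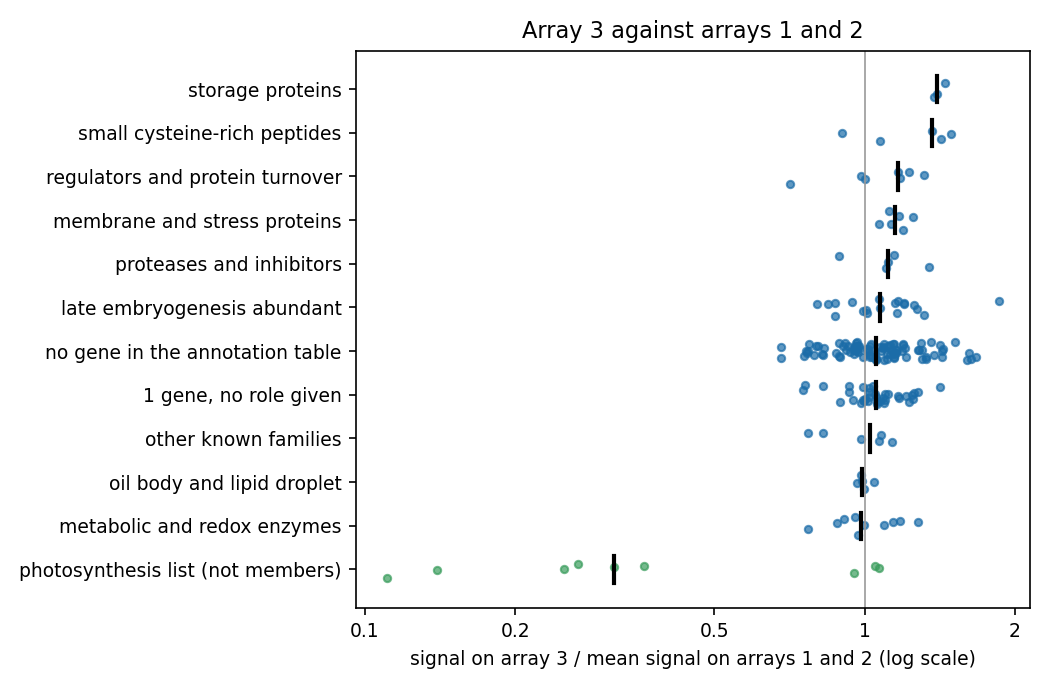
Signal on array 3 over the mean signal on arrays 1 and 2 (log axis), with each probe set as a point and a bar at the median of each group of members; the last row shows the 9 nuclear photosynthesis genes, which are not members. Storage genes sit right of 1 (median 1.40) and 6 of the 9 photosynthesis genes sit left of 0.5; the glycine-rich, translation and several-gene members are not drawn.

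Members lay along all 5 chromosomes, with 30, 17, 25, 10 and 23 loci on chromosomes 1 to 5, or 0.880%, 0.784%, 0.919%, 0.517% and 0.771% of the loci with a probe set there. Of the 105 member loci, 10 (9.52%) had another member within 3 genes, against 273 of 12119 other loci (2.25%) that had a member so near. The 5 pairs were M17 with M10, AT2G23110 with AT2G23120, AT1G14940 with AT1G14950, AT1G54860 with AT1G54870, and AT3G15260 with AT3G15280. The first 3 pairs are of 1 family each, and how far their probes share signal was not tested.

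The same 200 probe sets held 33.8% ± 0.446 of the summed signal in seed from 10 °C, 29.4% ± 0.614 in seed from short days, 27.2% ± 1.66 in ft-1 seed and 27.4% ± 0.990 in wild-type seed from 20 °C and long days (SD, n = 3 each). The 10 °C arrays (33.5% to 34.3%) and the short-day arrays (29.0% to 30.1%) lay wholly above those of the wild type at 20 °C in long days (26.3% to 28.2%). The ft-1 arrays (25.3% to 28.3%) overlapped with them. The differences were 6.42, 2.06 and -0.21 percentage points. They were not tested, since the members were chosen on the arrays of 1 of the groups. Each group's own 200 highest held 35.0% at 10 °C, 29.9% in short days, 27.5% in ft-1 and 27.4% in the wild type at 20 °C in long days.

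**Figure D5:**
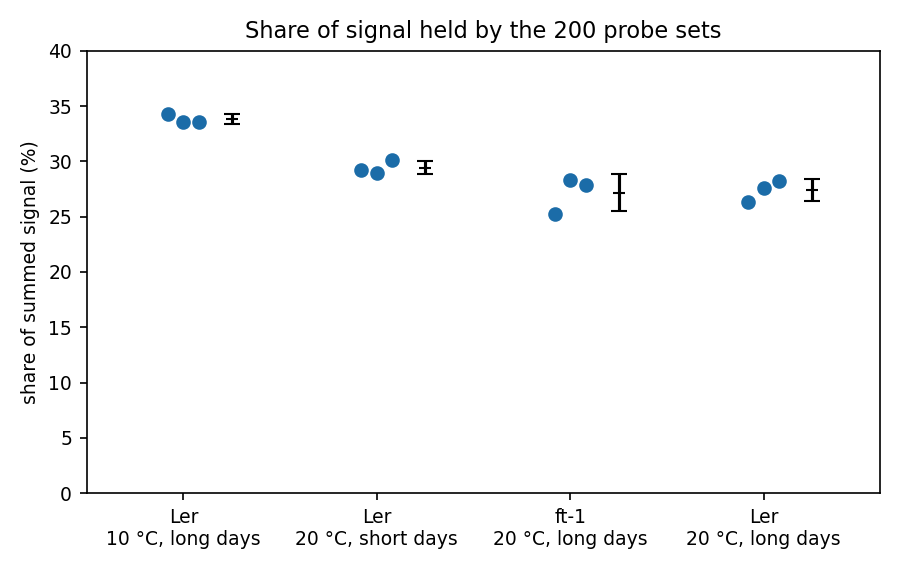
Share of the summed signal (percent, axis from 0) held by the 200 probe sets on each of the 12 arrays, with mean and SD beside the points of each group. The 10 °C arrays sit at 33.5% to 34.3%, above the 26.3% to 28.2% of the wild type at 20 °C in long days.

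Most members were among the highest in every group. In seed from 10 °C 167 of the 200 (83.5%) were in that group's own 200 highest, in short-day seed 181 (90.5%) and in ft-1 seed 176 (88%). In all 4 groups it was 161, of which 85 have 1 gene and 18 are LEA genes. The highest-ranked newcomer with 1 gene at 10 °C was AT2G43590, a chitinase family gene, with a mean of 7587 (rank 82), against 304 (rank 2525) in the wild type at 20 °C in long days. In short-day seed it was AT1G15330 with 3689, against 2326, and in ft-1 seed AT1G08170 with 3118, against 2046. The poly-A controls, given as the mean log2 signal, also differed, with 8.12 to 8.85 at 10 °C, 7.68 to 7.74 in short days, 5.65 to 7.87 in ft-1 and 6.51 to 6.99 in the wild type at 20 °C in long days. For GAPDH, by the first pair of control probe sets, the 3' minus 5' difference was 1.32 to 1.79 at 10 °C, 0.556 to 1.65 in short days, 0.804 to 1.03 in ft-1 and 0.260 to 0.768 in the wild type at 20 °C in long days. By the second pair it was -0.07 to 0.16 at 10 °C, against 0.279 to 0.437 in the wild type at 20 °C in long days, so the pairs moved in opposite directions. For actin the values were 3.58 to 4.15, against 3.28 to 3.82, and for ubiquitin 0.577 to 1.20, against 0.536 to 0.701, both with overlap. The part of these controls in the shares was not tested.

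Differences of single members between groups were tested with limma on log2 signals over all 12 arrays, with adjustment over the 13648 probe sets tested. All 200 members passed the filter on dim signals. The 3 comparisons share the arrays on which the members were chosen, so the direction of a difference is in part set by that choice. At 10 °C, 125 members were called higher (62.5%), against a background of 11.3% of all probe sets tested. Another 10 were called lower (5%, background 20.5%), and the background in either direction was 31.9%. The median log2 difference was 0.54 over the members and -0.16 over all probe sets tested, and the arrays of both groups did not overlap in 153 members (76.5%), against 48% of all probe sets tested. The background takes in probe sets far dimmer than the members, and one of like signal was not computed. The count depended on the scaling. The deposited scaling sets a mean that leaves out the highest and lowest 2%, so summed signals could differ. They were 4118258 to 4294736 at 10 °C, against 3551554 to 3652689 in the wild type at 20 °C in long days. Quantile normalization makes the distribution of signals equal on all arrays, and with it any common shift of the highest signals is removed by construction. It left 51 members called (25.5%, background 28.1%), 19 higher (background 12.8%) and 32 lower (background 15.3%), and the median was -0.04 for the members and -0.04 for all. Centring on the array median gave 120 higher (background 10.9%) and 10 lower (background 19.8%).

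By group, 12 LEA genes were called higher and 3 lower of 19, with 3 and 3 after quantile normalization. Beside this, 62.5% of all 200 members and 11.3% of all probe sets tested were called higher. Of the 93 unnamed members 54 were called higher, and of the 36 given no role 26. A high count is thus not particular to the LEA genes. M17 had 9741, 9809 and 8924 in seed from 10 °C, against 3754, 4082 and 3149 in seed from 20 °C and long days, with no overlap (log2 difference 1.38, SE 0.128, adjusted p = 1.445e-05, limma). AT3G02480, a LEA_4 gene, had 12224, 9919 and 11911, against 4257, 4721 and 4547 (1.33, adjusted p = 8.351e-05, limma). The 3 lower ones, named after their values were seen, were AT2G42560, AT5G44310 and AT3G53040. They are LEA_4 genes, a family in which 3 of 9 were called higher (AT3G02480, AT3G15670 and AT4G21020), 3 lower and 3 neither. AT2G42560 had 3417, 4986 and 3324, against 5969, 6781 and 8379 (-0.86, adjusted p = 0.01009, limma). For AT5G44310 and AT3G53040 the log2 differences were -0.78 and -0.54.

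Several other groups at 10 °C ran mostly one way under the deposited scaling and not under the other, as did the 200 as a whole. Of all 200, 62.5% were called higher under the deposited scaling (background 11.3%). After quantile normalization 9.5% were called higher (background 12.8%) and 16% lower (background 15.3%). All 3 storage genes were called higher, also without array 3 of the wild type at 20 °C in long days, and 0 after quantile normalization. Of 5 oil body genes 4 were called higher, against 0 higher and 1 lower after quantile normalization. Of 10 enzymes 8 were called higher, against 2 higher and 3 lower. BGLU19 had 10302, 12012 and 9917 in seed from 10 °C, against 4711, 5615 and 5143 (1.06, adjusted p = 0.0001261, limma). FDH had 8732, 7957 and 8838, against 4541, 4412 and 4065 (0.97, adjusted p = 0.0002224, limma). Of 5 cysteine-rich peptides 3 were called higher under both scalings, with 1 lower after quantile normalization. AT1G48750 had 10077, 8400 and 9620, against 4111, 4636 and 3945 (1.15, adjusted p = 0.0001013, limma). Not all groups had high counts under the deposited scaling. Called higher were 1 of 5 proteases and inhibitors, 3 of 7 regulators and protein turnover genes and 1 of 2 glycine-rich proteins.

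In short-day seed 5 members were called higher and 3 lower, or 4% of the members, against a background of 1.78% (0.725% higher and 1.06% lower). At an unadjusted p under 0.05 there were 73 (36.5%, against 17.4% of all probe sets tested), and the median log2 difference was 0.19 for the members and -0.06 for all. The direction depended on the scaling. After quantile normalization 0 members were called higher and 5 lower (background 1.95% in either direction). The median was then -0.005 for the members and 0.018 for all. AT1G48750 had 6444, 6280 and 7023 in short days, against 4111, 4636 and 3945 (0.64, adjusted p = 0.02526, limma). AT3G22490 had 6214, 5899 and 5866, against 3845, 4124 and 3369 (0.67, adjusted p = 0.04417, limma). M17 gave 0.55 (adjusted p = 0.04103, limma). These 3 were no longer called when any 1 of the 6 arrays of the groups compared was left out. The largest difference was that of the unnamed probe set 266415_at, singled out after its values were seen, with 1171, 1439 and 1395, against 3455, 3697 and 5114 (-1.60, adjusted p = 0.001429, limma). The other unnamed probe sets called were 253894_at (-0.98) and 247810_at (-0.65), both lower, and 248128_at (0.91) and 250351_at (0.61), both higher.

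In ft-1 seed limma called 0 members, against a background of 0.388% (0.249% higher and 0.139% lower), and 30 had an unadjusted p under 0.05 (15%, against 12.3% of all probe sets tested). The median log2 difference was 0.01 for the members and -0.06 for all. The members with the smallest adjusted p were AT3G02480 (-0.46, adjusted p = 0.2119), AT1G14940 (-0.66), AT3G05500 (-0.41), AT2G44310 (0.39) and AT1G03890 (-0.43), none past the test. AT1G14940, a major latex protein-like gene, had 1407, 2853 and 1605 in ft-1 seed, against 3082, 3328 and 2466, with overlap through ft-1 array 2. Without that array limma called it lower (-0.97) and called 2 members in all, and without ft-1 array 3 it also called 2. The share of all probe sets called in these fits is not given here, so the counts have no background beside them.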

How the data were processed

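RNA from 12 seed samples was measured on Affymetrix ATH1 arrays. The deposited values are intensities (linear signals). Per the submitters' processing notes the authors used GCOS and MAS5, with versions not stated. Without its lowest and highest 2%, each array had a mean of 100. Detection calls and images were not used here. The number of arrays limits the precision. Of 22810 probe sets, 64 AFFX controls were left out. Gene names came from the platform annotation, updated through TAIR10.1. No coordinates are printed, since the sources used here do not name the build behind it.

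Shares and CVs were computed with Python 3.11.15 and pandas 2.3.3. Log2 signals (floor 0.1) above the 40th percentile of the mean entered limma 3.58.1 under R 4.3.3 (lmFit, eBayes with trend, 1 coefficient per group, two-sided, Benjamini-Hochberg adjusted p under 0.05). The fit was tested on simulated data. Alternatives were ranking by log2 mean or median, 100 or 400 probe sets, quantile normalization, median centring, no filter, no trend, fits of 2 groups, the replicate block and arrays left out.

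The members and lists were chosen with earlier results of these data known, and roles and LEA families were assigned from general knowledge after the members were seen. The plastid list was taken from the assembly's chromosome column after its locus pattern had matched nothing. Named were, among members with 1 gene, the 30 highest, up to 6 per list, the 5 widest and 5 narrowest spreads, the 3 on each side of the threshold and the 5 smallest adjusted p per comparison, and unnamed probe sets of the first 10. Further genes that stand for a group or a list were named after their values were seen.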

Additional observations from a re-analysis of the deposited data

How the results depend on the processing

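The share of 27.4% became 30.2% after quantile normalization, 26.3% to 28.1% when members were chosen on 2 arrays and measured on the one left out (26.3% on array 1), and 27.0% to 27.9% over the single arrays left out. The median CV of 9.27% ranged from 7.23% to 10.8% with 1 array left out. The LEA share of 3.24% became 3.57% after quantile normalization and 2.73% among the 100 highest. Percentages after the counts that follow are the share of all probe sets tested that was called under the same setting. The 135 members called at 10 °C (31.9%) became 51 after quantile normalization (28.1%) and 130 with the replicate number as a block (27.9%). With 1 array of the 2 groups compared left out (as in the other 2 comparisons) there were 102 to 138 (19.1% to 34.9%). The 8 called in short days (1.78%) became 2 with the replicate block (0.975%), 5 after quantile normalization (1.95%) and 5 after median centring (1.7%). Of the 8, 5 were higher, and in the 3 alternatives 0, 0 and 4 were higher. There were 2 with no filter (0.945%), 1 with no variance trend (1.02%) and 24 in a fit of only the 2 groups (7.96%). Of these, 0, 0 and 20 were higher. With 1 array left out there were 1 to 6 (0.469% to 1.59%). It was 1 without short-day array 1, and 2 without short-day array 2 or 3 or wild-type array 1 or 2. In each of these fits 0 were higher, and without wild-type array 3 it was 3 of 6. The 0 called in ft-1 (0.388%) became 3 after quantile normalization (0.55%), 0 with the replicate block (0.161%) and 0 to 2 with 1 array left out (share of all not given here). The causes were not tested. Deviations of same-numbered arrays correlated weakly between each other group and the wild type at 20 °C in long days (-0.12 to 0.14). The main fit therefore did not pair them. These values cannot settle whether the numbers mark a shared harvest or batch. Among alternatives for the genes named by smallest adjusted p, 60 of 60 kept direction and call at 10 °C, 27 of 60 in short days (31 lost the call, 2 gained it) and 59 of 60 in ft-1 (1 gained it). Picking genes by the main fit favours keeping the call. At 10 °C the log2 differences of these genes were smaller after quantile normalization. They were 0.78 for M17, 0.71 for AT3G02480, 0.53 for AT1G48750, 0.46 for BGLU19 and 0.39 for FDH. Low signals are noisy under MAS5. The members all averaged above 2400 in the wild type at 20 °C in long days, and some were lower in other groups. Saturation could not be read from these files.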
